A study of Mus musculus with 12 samples.

Results

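The 10 genes described here encode the proteins of the nuclear lamina and the high-mobility-group (HMG) chromatin proteins that are used as marks of cellular senescence: Lmnb1, Lmnb2, Lmna, Lbr, Tmpo, Hmgb1, Hmgb2, Hmgb3, Hmga1 and Hmga2. They were found by their symbols among the 55421 annotated genes of the deposited count table, each symbol matching 1 row, and all 10 passed the low-count filter with between 1202 and 106357 reads in a library. Their RNA was measured by sequencing of polyadenylated RNA in cultured MOC2 cells, which derive from a squamous carcinoma of the mouse mouth. The control groups were the MOC2-25 cells labelled EV-proficient and the MOC2-27 cells labelled EV-deficient, both under DMSO. The paclitaxel groups were the same derivatives exposed for 48 h to 600 nM of paclitaxel, which stabilises microtubules and was used in the study to induce senescence. EVs are extracellular vesicles, membrane particles that cells shed, and their release was blocked genetically in the study's model; the labels do not name the gene. Because only 1 derivative stands for each EV label, EV status and derivative cannot be told apart. Each of the 4 groups held 3 libraries, 12 in all, and nothing in the labels says that the libraries came from separate cultures, so p-values measure the spread between these libraries only.

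The nuclear lamina is a meshwork of intermediate filaments, the B-type lamins and the A-type lamins, which lines the inner nuclear membrane and is tied to heterochromatin through membrane proteins such as the lamin B receptor and the lamina-associated polypeptides. HMG proteins are small, abundant architectural proteins: HMGB proteins bend DNA through HMG boxes, and HMGA proteins bind the minor groove of AT-rich DNA through AT hooks. In senescent cells loss of lamin B1, loss of HMGB2 and release of HMGB1 from the nucleus are widely used marks, and HMGA proteins have been described as components of senescence-associated heterochromatin foci.

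Library totals ran from 23263472 to 62955757 reads, and EV-proficient paclitaxel replicate 3 had the fewest. Of 8 squamous epithelial markers, Krt8, Krt18, Krt14, Cdh1, Epcam and Sfn were detected in every library, whereas the basal markers Krt5 and Trp63 had at most 8 and 11 reads in a library. Of the 6 that were tested, 4 fell and 1 rose with paclitaxel in EV-proficient cells (median log2 fold change -0.36). In EV-deficient cells 5 fell and 1 rose (-0.97). Over all genes tested 27.1% fell and 31.1% rose in EV-proficient cells, and 30.5% and 32.4% in EV-deficient cells. The squamous list summed to 5023 to 5455 CPM (counts scaled to a common library size) under DMSO and 3495 to 3825 CPM under paclitaxel in EV-proficient cells. In EV-deficient cells it summed to 5373 to 5846 CPM and 3073 to 3191 CPM. The summed level of 11 immune, stromal and endothelial markers was 9.83 to 11.4 CPM in the EV-proficient DMSO libraries, 36.5 to 40.3 under paclitaxel, 12.1 to 14.3 in the EV-deficient DMSO libraries and 32.9 to 49.8 under paclitaxel. Cd68, which encodes a lysosomal protein, held most of that sum, and Cd3e had at most 2 reads in a library. Of the 7 tested markers of this list, 5 rose in EV-proficient and 6 in EV-deficient cells with paclitaxel, and 0 fell. Their median log2 fold changes were 1.66 and 1.15. The part of both marker lists in the results below was not tested. A sequence named dngfr, 1 of 2 rows that the authors added to the table, averaged 8.99 ± 3.23 CPM (SD, n = 3) under DMSO with the EV-proficient label and 2.14 ± 0.35 CPM with the EV-deficient label. Under paclitaxel the same row averaged 3.24 ± 0.68 CPM with the EV-proficient label and 10.9 ± 1.42 CPM with the EV-deficient label. The libraries that were high in dngfr therefore carried the EV-proficient label under DMSO and the EV-deficient label under paclitaxel. The second principal component of log2 CPM over all tested genes (16.4% of the variance) grouped the libraries in that same crossed way, with positive scores of 27.2 to 43.5 in one pair of groups and negative scores in the other. Whether the EV labels of 1 treatment are exchanged cannot be told apart from a real crossing with these labels. The libraries were kept under their labels throughout, and EV-deficient or EV-proficient cells below means libraries labelled so. The paclitaxel effect averaged over both EV labels has the same value whichever derivative the paclitaxel libraries came from, and it is given for each member.

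The promoter sequences of 4 members are shown: Hmgb2, Lbr and Hmgb3, whose windows held both a CCAAT box and a CHR element, and Hmga2, whose window held neither. The relation of the motifs to the response was not tested. Each run is the 250 bases before the RefSeq start of the gene on GRCm38.p6, in the gene's direction from 5′ to 3′. None of them overlaps an annotated exon of its gene, but the Lbr window lies within the Lbr gene span given below, where some annotated transcripts start further upstream and hold it in an intron. The Hmgb2 window is chr8:57511593-57511842 on the plus strand, the Lbr window chr1:181842402-181842651 on the minus strand, the Hmgb3 window chrX:71555667-71555916 on the plus strand, and the Hmga2 window chr10:120476470-120476719 on the minus strand. Capitals mark the CCAAT box and the cell-cycle genes homology region (CHR element, TTTGAA or TTCGAA), searched on both strands, so that TTCAAA marks a CHR match on the other strand.
Hmgb2: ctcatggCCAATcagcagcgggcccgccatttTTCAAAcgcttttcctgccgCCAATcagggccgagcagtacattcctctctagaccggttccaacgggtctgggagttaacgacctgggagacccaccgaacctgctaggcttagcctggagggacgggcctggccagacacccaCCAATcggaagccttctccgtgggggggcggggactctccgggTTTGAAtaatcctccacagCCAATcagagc
Lbr: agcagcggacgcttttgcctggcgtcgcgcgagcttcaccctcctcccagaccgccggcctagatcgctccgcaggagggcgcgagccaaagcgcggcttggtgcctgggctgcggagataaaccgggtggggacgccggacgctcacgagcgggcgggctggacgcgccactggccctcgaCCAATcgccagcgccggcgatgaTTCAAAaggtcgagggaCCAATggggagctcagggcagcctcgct
Hmgb3: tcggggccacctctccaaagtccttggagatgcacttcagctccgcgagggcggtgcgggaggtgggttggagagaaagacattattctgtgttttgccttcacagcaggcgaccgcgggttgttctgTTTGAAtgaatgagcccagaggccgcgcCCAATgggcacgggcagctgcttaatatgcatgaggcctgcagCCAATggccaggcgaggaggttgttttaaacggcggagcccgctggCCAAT
Hmga2: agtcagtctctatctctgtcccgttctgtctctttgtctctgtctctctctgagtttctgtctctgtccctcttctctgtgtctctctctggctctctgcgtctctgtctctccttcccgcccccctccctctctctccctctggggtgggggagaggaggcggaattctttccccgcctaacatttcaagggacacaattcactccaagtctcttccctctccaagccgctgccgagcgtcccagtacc

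The Hmgb2 window held 4 CCAAT boxes and 2 CHR elements, the Lbr window 2 and 1, the Hmgb3 window 3 and 1, and the Hmga2 window neither. No CCAAT match overlapped a CHR match. Of the 9 members with a window in the table, all but Lmnb1, 5 held a CCAAT box in their first window (Tmpo with 2 and Hmgb1 with 3, beside the 3 above) and 3 held a CHR element. The first windows of Lmnb2, Lmna, Hmga1 and Hmga2 held neither, and of these 4 genes all but Hmga2 fell with paclitaxel in EV-deficient cells. The first windows of Lmna, Hmgb1 and Hmga1 overlapped annotated exons of their genes by 34, 47 and 77 bases. A CCAAT box was present in 33.8% and a CHR element in 17.1% of the 32851 windows of the same length over all genes. The E2F site searched, TTTNNCGC, was in none of the first windows of the 9 members and in 4.28% of all windows. The shares over all genes count every window, not first windows only. Among second windows of members, that of Tmpo held 2 E2F sites and 1 CHR element, and that of Lmna held 1 CCAAT box. A match is a description of letters in this window and not evidence of binding.

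Scaled by exonic length, Hmga1 was the most abundant member in every group. Its level was 686 ± 55.5 CPM per kb in EV-proficient DMSO libraries (SD, n = 3), rank 42 of 18093 length-scaled genes, and 374 ± 25.7 CPM per kb in EV-deficient paclitaxel libraries, rank 67. In EV-proficient DMSO libraries Lmna, Hmgb2, Hmgb1 and Hmga2 followed on the same scale at 146 ± 19.9, 135 ± 2.11, 115 ± 8.34 and 114 ± 3.67 CPM per kb, and Lmnb1 was at 67.6 ± 2.10 CPM per kb. Tmpo, Lbr and Hmgb3 lay close together between 22.7 and 26.1 CPM per kb, and Lmnb2 was the lowest at 12.9 ± 0.62 CPM per kb. All members thus stood in the upper 22.4% of these genes in that group. The 10 members together took 0.440 ± 0.018% of all reads under DMSO and 0.462 ± 0.0078% under paclitaxel in EV-proficient cells, and 0.451 ± 0.011% and 0.328 ± 0.0099% in EV-deficient cells. After scaling between libraries their summed level was 4534 to 5023 CPM under DMSO and 4308 to 4491 CPM under paclitaxel in EV-proficient cells, so there the direction of the sum depended on the scaling. In EV-deficient cells it was 4814 to 5087 CPM and 2768 to 2982 CPM, lower under paclitaxel on both scales. The mitochondrial share of reads was 0.581 to 0.729% under DMSO and 1.07 to 1.45% under paclitaxel in EV-deficient cells, and 0.550 to 0.720% and 0.846 to 0.907% in EV-proficient cells; its part in the members' changes was not tested.

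**Figure D1:**
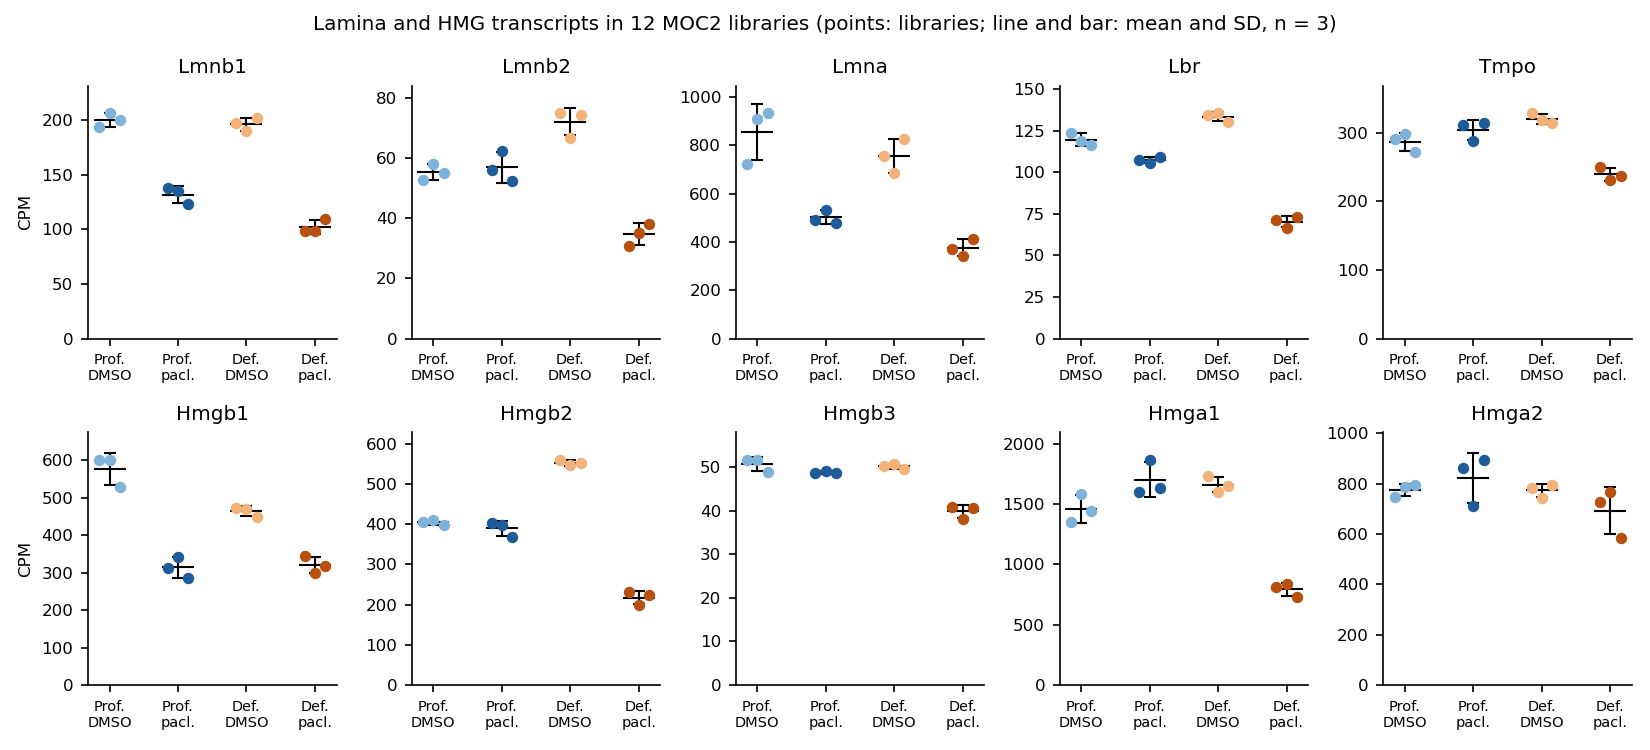
CPM of each member (vertical axis, starting at 0) in the 4 groups, with a point per library and the group mean and SD (n = 3) as a line and bar; Prof. and Def. stand for the EV-proficient and EV-deficient labels and pacl. for paclitaxel. EV-deficient paclitaxel libraries are the lowest group for every member except Hmgb1, and for Hmga2 all 4 groups overlap with their neighbours in the order of means.

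Paclitaxel lowered the structural lamins Lmnb1 and Lmna in both derivatives. The reads of 5 members changed in EV-proficient cells, against 58.2% of the 18108 genes tested, and 9 fell in EV-deficient cells, against 62.9% called in all, 30.5% called lower and 32.4% called higher (edgeR quasi-likelihood test, Benjamini-Hochberg adjusted p under 0.05). In EV-proficient cells 4 members fell and 1 rose, with 27.1% of all genes called lower and 31.1% called higher. The median log2 fold change of the 10 members was -0.06 in EV-proficient and -0.93 in EV-deficient cells, beside medians of 0.05 and 0.07 over all genes tested. Averaged over both EV labels, an average added after the data were seen, 9 members fell, all but Hmga2, where 68.4% of genes were called, 31.3% lower and 37.1% higher. Both paclitaxel comparisons share no library, but each shares its DMSO libraries with the comparison of the EV labels.

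Lmnb1 (ENSMUSG00000024590, GRCm38 chr18:56707813-56753424, plus strand) encodes lamin B1, a farnesylated B-type lamin that stays at the nuclear membrane. In EV-proficient cells it was at 194, 206 and 199.8 CPM in the DMSO libraries and at 138, 135 and 123 CPM under paclitaxel. With the EV-deficient label it was at 197, 190.0 and 202 CPM under DMSO and at 98.0, 98.5 and 109 CPM under paclitaxel. Every paclitaxel library lay below every DMSO library, and the DMSO groups of both labels overlapped. The log2 fold change was -0.60 ± 0.06 (SE, adjusted p 4.1e-08) in EV-proficient and -0.94 ± 0.06 (adjusted p 2.9e-11) in EV-deficient cells by edgeR, so that Lmnb1 fell by 34.0% and fell by 48.0%. The fall was larger in EV-deficient cells by 0.34 ± 0.09 on the log2 scale (log2 difference -0.34, adjusted p 0.0034 for the interaction), and averaged over labels the change was -0.77 ± 0.04.

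Lmna (ENSMUSG00000028063, GRCm38 chr3:88480147-88509956, minus strand) encodes lamins A and C, the A-type lamins that give the nucleus stiffness. Its level was 721, 910.0 and 933 CPM in EV-proficient DMSO libraries and 491, 534 and 479 CPM under paclitaxel. In EV-deficient cells the values were 754, 687 and 828 CPM under DMSO and 372, 342 and 412 CPM under paclitaxel. The treated and untreated libraries did not overlap in either derivative, although Lmna was the most variable lamin under DMSO, with replicate 1 of the EV-proficient group lowest. The log2 fold changes were -0.77 ± 0.09 (edgeR, adjusted p 1.9e-07) and -1.01 ± 0.09 (adjusted p 2.4e-09), and the difference between them, -0.24 ± 0.13, did not pass the test (adjusted p 0.14), although it did with no low-count filter (-0.31). The average over labels, -0.89 ± 0.06, was the most negative of the 10 members.

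Lmnb2 (ENSMUSG00000062075, GRCm38 chr10:80901203-80918245, minus strand), the gene of lamin B2, behaved unlike Lmnb1 in EV-proficient cells. There it was at 52.6, 57.9 and 55.2 CPM under DMSO and at 56.0, 62.5 and 52.3 CPM under paclitaxel, overlapping ranges with a log2 difference of 0.05 ± 0.08 (edgeR, adjusted p 0.65). The EV-deficient libraries were at 74.9, 66.8 and 74.4 CPM under DMSO and at 30.7, 35.1 and 38.1 CPM under paclitaxel. These groups were separate, and Lmnb2 fell by 51.9% (log2 fold change -1.06 ± 0.08, adjusted p 3.9e-10). The interaction was -1.10 ± 0.12 on the log2 scale (adjusted p 1.5e-07), and the average over labels was -0.50 ± 0.06. Without EV-proficient paclitaxel replicate 2 the small difference in EV-proficient cells turned to -0.08, again not past the threshold.

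The 2 lamina-associated membrane proteins fell in EV-deficient cells. Lbr (ENSMUSG00000004880, GRCm38 chr1:181815335-181843046, minus strand) encodes the lamin B receptor, which binds B-type lamins and heterochromatin protein 1 and also has sterol reductase activity. It was at 124, 119 and 116 CPM in EV-proficient DMSO libraries and at 107, 106 and 109 CPM under paclitaxel. The corresponding EV-deficient values were 134, 136 and 130.3 CPM and 71.1, 66.6 and 73.1 CPM. All 4 groups were separate, in the order EV-deficient DMSO, EV-proficient DMSO, EV-proficient paclitaxel and EV-deficient paclitaxel. Lbr fell by 47.3% in EV-deficient cells (edgeR log2 fold change -0.92 ± 0.06, adjusted p 1.2e-11) and fell by 10.2% in EV-proficient cells (-0.16 ± 0.06, adjusted p 0.026). The latter call was lost with upper-quartile scaling (-0.10), with no low-count filter (-0.13) and without replicate 1 (-0.13) or replicate 2 (-0.16) of the EV-proficient DMSO group. The difference between labels was -0.77 ± 0.08 (adjusted p 1.6e-07), and the average over labels -0.54 ± 0.04.

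Tmpo (ENSMUSG00000019961, GRCm38 chr10:91147571-91181315, minus strand) encodes the lamina-associated polypeptides of the LAP2 family, which include a membrane-bound form that binds lamin B and a nucleoplasmic form that binds lamin A. Its level was 272 to 298 CPM in EV-proficient DMSO and 288 to 314 CPM in EV-proficient paclitaxel libraries, which overlapped (log2 difference 0.08 ± 0.06, edgeR adjusted p 0.23; 0.15 and called under upper-quartile scaling). Its level in EV-deficient cells was 314 to 329 CPM under DMSO and 231 to 250.4 CPM under paclitaxel. These did not overlap, and Tmpo fell by 25.3% (-0.42 ± 0.06, adjusted p 1.9e-06), with an interaction of -0.51 ± 0.08 (log2 value -0.505, adjusted p 4.2e-05). The count table holds 1 row for all Tmpo transcripts, so the forms of LAP2 were not separated. The average over labels, -0.17 ± 0.04, was called (adjusted p 0.0011) but not under upper-quartile scaling (-0.05).

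**Figure D2:**
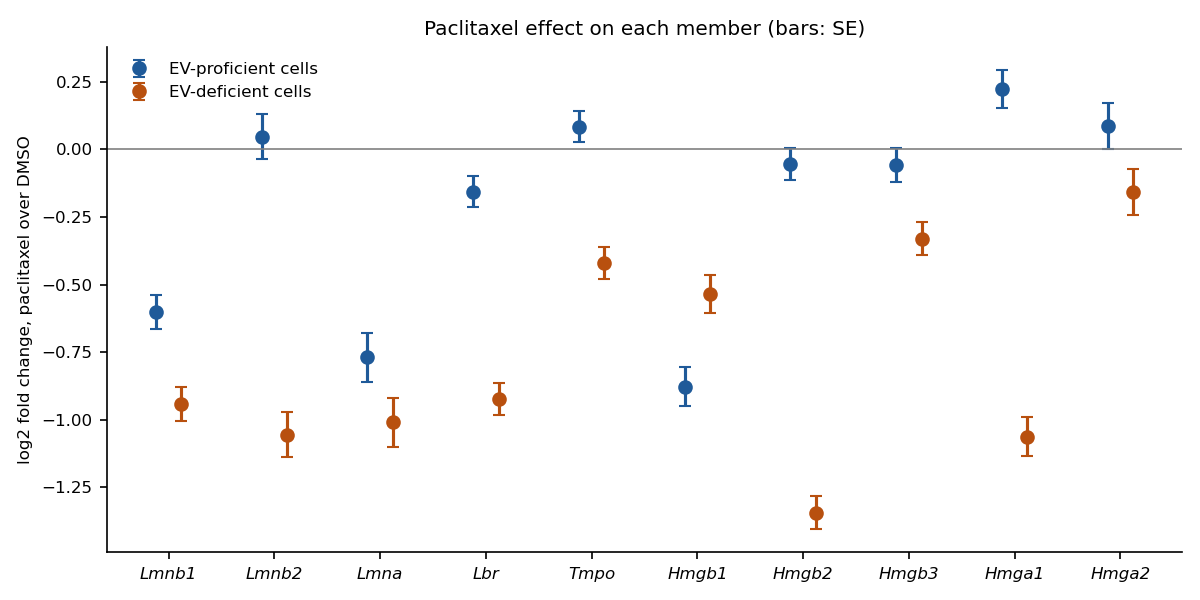
Log2 fold change of paclitaxel over DMSO (vertical axis) for each member, in EV-proficient (blue) and EV-deficient (orange) cells, with bars of 1 SE from the edgeR fit to 12 libraries. The points of Lmnb2, Tmpo, Hmgb2 and Hmgb3 in EV-proficient cells lie between -0.06 and 0.08, whereas all points in EV-deficient cells lie below 0, from -1.34 for Hmgb2 to -0.16 for Hmga2, which was not called.

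Hmgb1 and Hmgb2 had interactions of opposite sign. Hmgb1 (ENSMUSG00000066551, GRCm38 chr5:149046702-149184489, minus strand) encodes the abundant HMGB1 protein, which leaves the nucleus of stressed cells and acts outside them as an alarmin. It was at 600.4, 602 and 528 CPM in EV-proficient DMSO libraries and at 312, 343 and 286 CPM under paclitaxel. The EV-deficient values were 472, 471 and 449 CPM and 344, 299.8 and 317 CPM. Paclitaxel libraries lay below DMSO libraries in both derivatives, and the paclitaxel groups of the labels overlapped. The log2 fold change was -0.88 ± 0.07 in EV-proficient cells (edgeR, adjusted p 9.9e-10) and -0.54 ± 0.07 in EV-deficient cells (adjusted p 9.8e-07), so that it fell by 45.6% and fell by 31.0%. Hmgb1 was the only member with a positive interaction, 0.34 ± 0.10 on the log2 scale (adjusted p 0.0090), and its average over labels was -0.71 ± 0.05. The counts are of RNA, so they bear on neither the place of the protein nor its release.

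Hmgb2 (ENSMUSG00000054717, GRCm38 chr8:57511907-57515999, plus strand) encodes HMGB2, which is most abundant in cycling cells. It was at 405, 410.4 and 398 CPM in EV-proficient DMSO libraries and at 403, 397 and 368 CPM under paclitaxel. In EV-deficient cells it was at 561, 547 and 551 CPM under DMSO and at 230.5, 199 and 223 CPM under paclitaxel. The EV-deficient groups were the highest and the lowest of the 4, and the EV-proficient groups overlapped between them. In EV-deficient cells Hmgb2 fell by 60.6% (edgeR log2 fold change -1.34 ± 0.06, adjusted p 1.0e-13), while the EV-proficient difference was -0.05 ± 0.06 (adjusted p 0.46). The interaction was -1.29 ± 0.09 (adjusted p 1.0e-10) and the average over labels -0.70 ± 0.04. Under upper-quartile scaling the EV-proficient difference changed sign to 0.01 and was again not called.

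Hmgb3 (ENSMUSG00000015217, GRCm38 chrX:71555918-71560676, plus strand), a paralogue known from blood progenitor cells, differed little between 3 of the groups. In EV-proficient cells it ranged from 48.9 to 51.7 CPM under DMSO and from 48.6 to 49.1 CPM under paclitaxel. With the EV-deficient label it ranged from 49.6 to 50.8 CPM under DMSO and from 38.1 to 40.8 CPM under paclitaxel. The last of these groups was separate from all others, and Hmgb3 fell there by 20.4% (edgeR log2 fold change -0.33 ± 0.06, adjusted p 9.1e-05). The EV-proficient difference was -0.06 ± 0.06 (adjusted p 0.44) and turned to 0.002 under upper-quartile scaling. The interaction of -0.27 ± 0.09 was called (adjusted p 0.018), and the call was lost under upper-quartile scaling (-0.15) and without any 1 of 4 libraries (-0.24, -0.22, -0.24 and -0.19 without EV-proficient paclitaxel replicates 1, 2 and 3 and EV-deficient paclitaxel replicate 2). The average over labels, -0.19 ± 0.04, was called and under upper-quartile scaling was not (-0.07).

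The HMGA genes differed from each other. Hmga1 (ENSMUSG00000046711, GRCm38 chr17:27556497-27563674, plus strand) encodes an AT-hook protein that is high in embryonic and tumour cells. It was at 1348, 1582 and 1442 CPM in EV-proficient DMSO libraries and at 1602, 1869 and 1632 CPM under paclitaxel. The EV-deficient values were 1730.5, 1604 and 1649 CPM under DMSO and 816, 836 and 733 CPM under paclitaxel. The EV-deficient paclitaxel libraries were far below the other 9, which lay within 1348 to 1869 CPM. Hmga1 fell by 52.1% in EV-deficient cells (edgeR log2 fold change -1.06 ± 0.07, adjusted p 3.6e-11). It rose by 16.7% in EV-proficient cells (0.22 ± 0.07, adjusted p 0.010), the only rise of a member, and that call was lost without EV-proficient DMSO replicate 1 (0.17) or EV-proficient paclitaxel replicate 2 (0.09). The interaction was -1.29 ± 0.10 (adjusted p 1.5e-09) and the average over labels -0.42 ± 0.05.

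Hmga2 (ENSMUSG00000056758, GRCm38 chr10:120361275-120476469, minus strand), a let-7 target and oncofetal AT-hook gene, changed with paclitaxel in neither derivative by the test used. Under DMSO it ranged from 747 to 792 CPM with the EV-proficient label and from 744 to 793 CPM with the EV-deficient label. Under paclitaxel the ranges were 710.0 to 895 CPM and 585 to 765 CPM. The groups overlapped, and the SD was at most 3.35% of the mean under DMSO and up to 13.7% under paclitaxel. The log2 differences were 0.09 ± 0.09 (edgeR, adjusted p 0.41) and -0.16 ± 0.09 (adjusted p 0.12). The interaction, -0.24 ± 0.12, was not called either (adjusted p 0.12), but it was with no low-count filter (-0.31) and without EV-proficient paclitaxel replicate 2 (-0.29). The average over labels was -0.04 ± 0.06 (adjusted p 0.62), and 0.09 under upper-quartile scaling. The EV-deficient difference was called with no low-count filter (-0.20) and without EV-deficient paclitaxel replicate 2 (-0.23), and it turned to 0.03 under upper-quartile scaling.

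Between the EV labels, Hmgb2 and Lmnb2 were called in opposite directions under DMSO and under paclitaxel. Under DMSO 3 of 10 members differed, 2 higher and 1 lower in EV-deficient libraries, against 23.0% of all genes tested, 12.4% higher and 10.6% lower, and under paclitaxel 9 of 10 were lower in EV-deficient libraries, against 37.8% called, 21.8% lower and 16.0% higher (edgeR, adjusted p under 0.05). Under DMSO Hmgb2 was 36.7% higher (log2 fold change 0.45 ± 0.06, adjusted p 7.6e-06) and Lmnb2 30.4% higher (0.38 ± 0.08, adjusted p 0.0015) in EV-deficient libraries, and Hmgb1 was lower by 0.31 on the log2 scale (-0.31 ± 0.07, adjusted p 0.0023). Lbr, Tmpo and Hmga1 were not called, with log2 differences of 0.16 ± 0.06, 0.16 ± 0.06 and 0.19 ± 0.07 (edgeR adjusted p 0.053, 0.053 and 0.061). Their DMSO groups did not overlap, but the share of all genes with groups apart was not counted. All 3 were called with no low-count filter, with limma-voom and with only the groups compared, which made the count 6. The DMSO differences of Lmnb1, Lmna, Hmgb3 and Hmga2 lay between -0.18 and 0.00 on the log2 scale, and their groups overlapped. Without EV-proficient DMSO replicate 1 the Lmna difference was called (-0.28).

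Under paclitaxel Hmga1 differed most, at -1.10 ± 0.07 on the log2 scale (edgeR, adjusted p 2.3e-10). Hmgb2, Lmnb2 and Lbr followed at -0.84 ± 0.06, -0.72 ± 0.08 and -0.61 ± 0.06. Lmna, Lmnb1, Tmpo and Hmgb3 differed by -0.42 to -0.29. The groups of all 8 of these members did not overlap, but the share of all genes with groups apart was not counted. Hmga2 was called at -0.25 ± 0.09 (adjusted p 0.028) although its groups overlapped, and that call was lost under upper-quartile scaling (-0.15), with a filter of 1 CPM in 3 libraries (-0.21), with only the groups compared (-0.22) and without any 1 of 3 paclitaxel libraries (-0.21, -0.19 and -0.14). Hmgb1 was level between the labels in value, at 0.03 ± 0.07 (adjusted p 0.79). The dngfr row was higher in the EV-deficient paclitaxel libraries, where these members were lower, and higher in the EV-proficient DMSO libraries; its part in these differences was not tested.

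**Figure D3:**
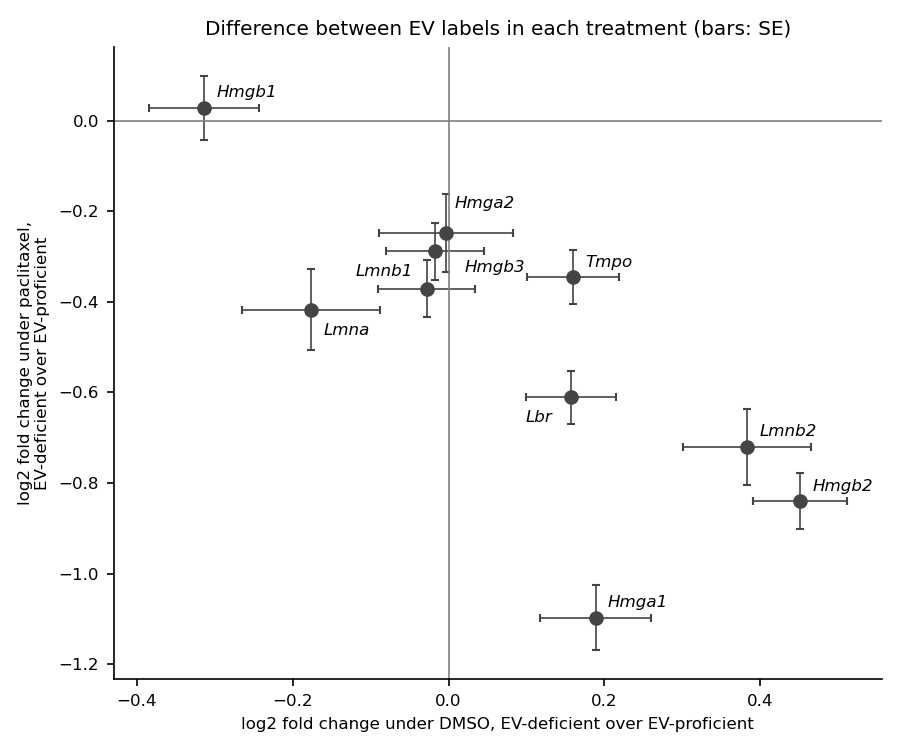
Log2 fold change of EV-deficient over EV-proficient libraries under DMSO (horizontal axis) and under paclitaxel (vertical axis) for each member, with bars of 1 SE. Hmgb2 and Lmnb2 lie to the right of 0 under DMSO (0.45 and 0.38) and below 0 under paclitaxel (-0.84 and -0.72), and Hmgb1 lies to the left (-0.31) and at 0.03 under paclitaxel.

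The paclitaxel effect itself differed between derivatives for 8 of 10 members, against 40.7% of genes called for the interaction, of which 16.9% of all genes were higher and 23.8% lower. A more negative effect in EV-deficient cells was found for 7 members, from -0.27 for Hmgb3 to -1.29 for Hmgb2 and Hmga1, and a less negative one for Hmgb1. The member median of the interaction was -0.42, beside -0.04 over all genes tested. These calls need the EV labels of the paclitaxel libraries, unlike the average over labels, in which 9 members fell. Values with each paclitaxel group set against the DMSO group of the other label were added after the data were seen, with no test. The EV-deficient paclitaxel libraries then differed from the EV-proficient DMSO libraries by -1.19 for Lmna, -0.97 for Lmnb1, -0.89 for Hmgb2, -0.87 for Hmga1 and -0.67 for Lmnb2 on the log2 scale. The EV-proficient paclitaxel libraries differed from the EV-deficient DMSO libraries by -0.59 for Lmna, -0.57 for Lmnb1, -0.51 for Hmgb2, 0.03 for Hmga1 and -0.34 for Lmnb2. In that pairing the sign of the difference between derivatives depends on which treatment is taken as exchanged. With the DMSO labels exchanged it stayed negative for the 7 members called with a negative interaction and was -0.29 for Hmgb1, and with the paclitaxel labels exchanged it was positive for those 7 and 0.29 for Hmgb1.

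Ratios of reads within a library do not depend on scaling between libraries. The Lmnb1 to Lmna count ratio was 0.269, 0.227 and 0.214 in EV-proficient DMSO and 0.281, 0.252 and 0.257 in EV-proficient paclitaxel libraries. It was 0.261, 0.277 and 0.244 in EV-deficient DMSO and 0.263, 0.288 and 0.266 in EV-deficient paclitaxel libraries. All 4 ranges overlapped, and the mean log2 change with paclitaxel was 0.11 (two-sided exact permutation of treatment within EV label over 400 arrangements, p 0.12, adjusted p 0.17 over 6 ratio tests). Within a single label 3 libraries against 3 cannot go below p 0.10. The change was 0.16 with p 0.03 by the same exact test without EV-proficient DMSO replicate 1, whose Lmna was lowest.

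The Hmgb2 to Hmgb1 count ratio was 0.675, 0.682 and 0.753 in EV-proficient DMSO and 1.29, 1.16 and 1.29 in EV-proficient paclitaxel libraries. In EV-deficient libraries it was 1.19, 1.16 and 1.23 under DMSO and 0.671, 0.664 and 0.705 under paclitaxel. The ratio was thus above 1 in EV-proficient paclitaxel and EV-deficient DMSO libraries and below 1 in the other groups. Those other groups are the ones with the higher dngfr level. The part of that crossing in the ratio was not tested. The reads in the ratio are not scaled by exonic length, so the value 1 does not mark equal levels. Per kb, mean Hmgb2 was above mean Hmgb1 in all 4 groups. They were closest in EV-deficient paclitaxel libraries, at 72.5 and 63.7 CPM per kb. The log2 change of the ratio with paclitaxel was 0.82 in EV-proficient and -0.81 in EV-deficient cells, with a mean of 0.01 (exact permutation p 0.97). The difference between the derivatives was -1.63 (exact permutation of EV labels within treatment, p 0.005, the smallest that 400 arrangements give, adjusted p 0.015), and it lay between -1.69 and -1.61 with any 1 library left out. With the paclitaxel groups set against the DMSO groups of the other label, the changes were -0.05 for the EV-deficient and 0.06 for the EV-proficient paclitaxel libraries, 0.11 apart.

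The Hmga2 to Hmga1 count ratio separated a single group. In EV-proficient cells it was 0.554, 0.497 and 0.550 under DMSO and 0.539, 0.380 and 0.549 under paclitaxel. In EV-deficient cells it was 0.453, 0.464 and 0.481 under DMSO and 0.893, 0.915 and 0.798 under paclitaxel, the only group apart from the rest. The log2 change was -0.14 in EV-proficient and 0.90 in EV-deficient cells, with a mean of 0.38 (exact permutation p 0.08, adjusted p 0.16). The difference between derivatives was 1.04 (exact permutation p 0.005, adjusted p 0.015). Set against the DMSO groups of the other label, the EV-deficient paclitaxel libraries changed by 0.70 in value and the EV-proficient paclitaxel libraries by 0.05, a difference of 0.65 by the paclitaxel label and of -0.65 by the DMSO label.

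**Figure D4:**
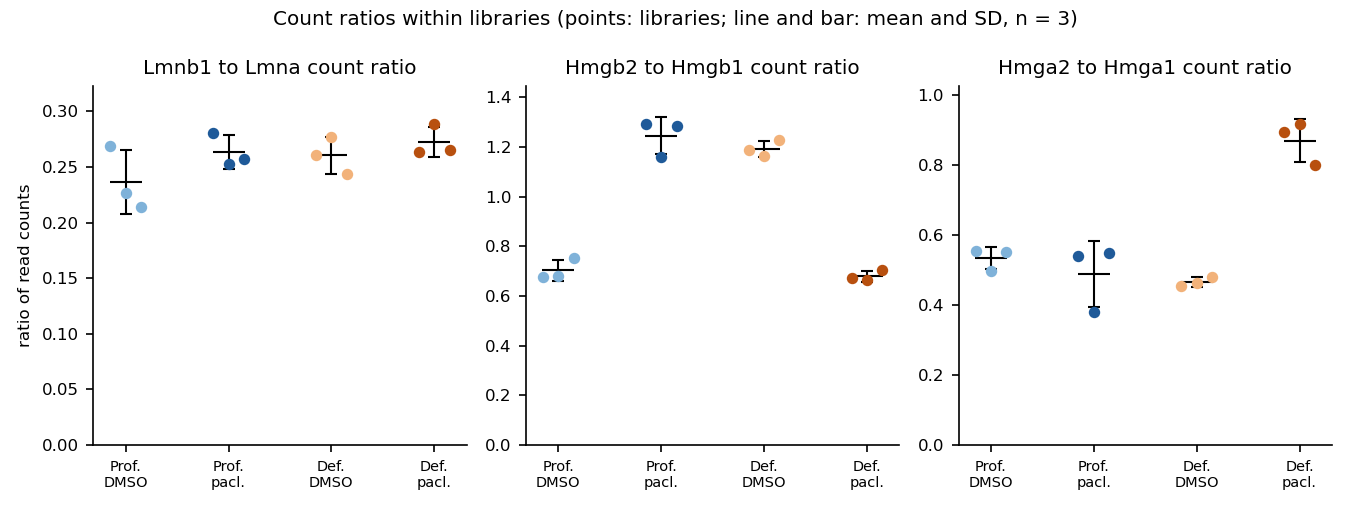
Ratio of read counts of 2 members within a library (vertical axes, starting at 0) in the 4 groups, with a point per library and the group mean and SD (n = 3). The Hmgb2 to Hmgb1 ratio is 1.16 to 1.29 in EV-proficient paclitaxel and EV-deficient DMSO libraries and 0.664 to 0.753 in the other 6, while the Hmga2 to Hmga1 ratio stands out only in EV-deficient paclitaxel libraries.

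Over the 12 libraries the log2 CPM of the members was positively correlated in all 45 pairs, with Pearson's r from 0.04 to 0.98 and a median of 0.83. These values describe libraries that share treatment and label. The closest pairs were Hmgb2 with Lbr and Lmnb1 with Lmna (r 0.98 for both), and the least alike were Hmgb1 and Hmga2. Among 9888 genes with at least 5 CPM, those most like Lmnb1 were Uhrf1, a reader of hemimethylated DNA that recruits the maintenance methyltransferase (r 0.995), Ccnf, which encodes cyclin F (r 0.994), and Haus8, which encodes an augmin subunit (r 0.993). Those most like Hmgb2 were Fermt1, which encodes kindlin-1 (r 0.992), Cdc45, a part of the replicative helicase (r 0.992), and Bckdk, a kinase of branched-chain ketoacid dehydrogenase (r 0.990). Cdc45 averaged 54.2 and 53.2 CPM in EV-proficient cells and 72.4 and 31.2 CPM in EV-deficient cells, under DMSO and paclitaxel in turn, the order of the Hmgb2 group means. For Hmga2 the closest genes, Fam49b, Adss and Zfp637, reached only r 0.878, 0.858 and 0.854.

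Most proliferation genes fell in both derivatives. Of the 10 members, 4 fell in EV-proficient and 9 in EV-deficient cells, with no test between the lists. Of 24 proliferation genes measured, 17 fell and 3 rose with paclitaxel in EV-proficient cells (median log2 fold change -0.46). In EV-deficient cells 23 fell (median -0.97, all-gene median 0.07). Over all genes tested 27.1% fell and 31.1% rose in EV-proficient cells and 30.5% fell and 32.4% rose in EV-deficient cells, the background for this and the following lists. Their summed level went from 5957 to 6175 CPM down to 4387 to 4603 CPM in EV-proficient libraries and from 6548 to 6657 CPM down to 3076 to 3625 CPM in EV-deficient libraries. Mcm5, a subunit of the replicative helicase, fell most in EV-deficient cells (log2 fold change -2.25 ± 0.09, edgeR adjusted p 3.4e-14), and Tyms, thymidylate synthase, fell most in EV-proficient cells (-1.54 ± 0.13, adjusted p 1.5e-09). The interaction was called and negative for 20 of the 24, where 40.7% of all genes were called and 23.8% were negative. The part of this shift in the members' changes was not tested, and in bulk RNA fewer cycling cells and less RNA per cell cannot be told apart.

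Among 24 other genes of the nuclear envelope and of lamin processing, 11 fell and 1 rose in EV-proficient cells (median -0.16) and 14 fell and 7 rose in EV-deficient cells (median -0.23), where 30.5% of all genes fell and 32.4% rose. Zmpste24, the protease that matures prelamin A, fell in EV-proficient cells from 139.5 ± 5.48 to 73.1 ± 6.40 CPM (SD, n = 3; log2 fold change -0.93 ± 0.08, edgeR adjusted p 1.4e-09), and was at 111 ± 3.02 and 104 ± 11.5 CPM in EV-deficient cells (-0.09 ± 0.08, adjusted p 0.30). Banf1, which bridges chromatin and LEM-domain proteins, fell in EV-deficient cells (-0.92 ± 0.06, adjusted p 3.6e-11) and in EV-proficient cells (-0.57 ± 0.06). Tmem201, which encodes the inner membrane protein SAMP1, also fell in both (-1.12 ± 0.07, adjusted p 2.8e-11, and -0.26 ± 0.07). Sun1, a part of the complex that links lamina and cytoskeleton, went from 187 ± 7.38 to 132 ± 3.54 CPM in EV-proficient cells and from 125 ± 4.39 to 167 ± 9.14 CPM in EV-deficient cells. Its interaction was 0.92 ± 0.08 (adjusted p 1.5e-08), opposite in sign to that of Lmnb1, Lmnb2 and Lbr.

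Of 18 other HMG-box and HMG nucleosome-binding genes, 14 passed the filter, and Tox2 had at most 2 reads in a library. Paclitaxel raised 6 and lowered 5 in EV-proficient cells (median -0.12) and raised 4 and lowered 7 in EV-deficient cells (median -0.23), beside 31.1% raised and 27.1% lowered and then 32.4% and 30.5% over all genes. Hmgn2, a nucleosome-binding protein, fell in EV-deficient cells (-1.18 ± 0.10, edgeR adjusted p 5.7e-10) and in EV-proficient cells (-0.62 ± 0.09). Ssrp1, a subunit of the histone chaperone FACT, fell in both as well (-1.12 ± 0.06, adjusted p 3.0e-12, and -0.54 ± 0.06). Bbx, an HMG-box transcription factor, rose in EV-proficient cells from 31.9 ± 2.73 to 96.7 ± 5.94 CPM (1.60 ± 0.07, adjusted p 2.6e-13) and in EV-deficient cells (0.97 ± 0.07).

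Of 22 heterochromatin genes, 11 fell and 6 rose with paclitaxel in EV-proficient cells (median -0.18) and 17 fell and 1 rose in EV-deficient cells (median -0.43), beside 27.1% and 31.1% and then 30.5% and 32.4% over all genes. Hells, a remodeller needed for DNA methylation, fell in EV-deficient cells (-1.69 ± 0.10, edgeR adjusted p 6.3e-12), with Uhrf1 (-1.48 ± 0.09, adjusted p 5.7e-12) and Dnmt1, the maintenance methyltransferase (-1.37 ± 0.07, adjusted p 1.0e-12). All 3 also fell in EV-proficient cells (-0.98 ± 0.10, -1.002 ± 0.09 and -0.64 ± 0.07). Macroh2a2, a variant histone gene, crossed between derivatives: it went from 10.7 ± 0.62 to 20.4 ± 0.57 CPM in EV-proficient cells and from 16.9 ± 0.83 to 10.8 ± 0.24 CPM in EV-deficient cells (SD, n = 3). Its interaction was -1.57 ± 0.13 (adjusted p 3.2e-09).

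Hmga2 is held down by let-7 microRNAs, which LIN28 proteins block, and IGF2BP proteins bind its RNA. Of 10 genes of this axis, 9 passed the filter. In EV-proficient cells 4 rose and 3 fell (median 0.18), and in EV-deficient cells 2 rose and 4 fell (median -0.18), beside the 27.1 to 32.4% called in each direction over all genes. Lin28b went from 24.7 ± 2.37 to 16.9 ± 0.86 CPM in EV-proficient and from 34.8 ± 1.47 to 17.2 ± 1.70 CPM in EV-deficient cells (SD, n = 3; log2 fold changes -0.55 ± 0.09 and -1.02 ± 0.09, edgeR adjusted p 2.8e-05 and 2.6e-09). Igf2bp1 fell in EV-proficient cells (-0.96 ± 0.07, adjusted p 4.0e-10) and in EV-deficient cells (-0.41 ± 0.07), while Hmga2 itself was called in neither.

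Of 12 genes of HMGB1 reception and release, 10 passed the filter, and Trem1 had at most 3 reads in a library. Paclitaxel raised 3 and lowered 3 in EV-proficient cells (median 0.13) and raised 6 and lowered 3 in EV-deficient cells (median 0.80). The EV-proficient shares are near the 31.1% raised and 27.1% lowered over all genes, and in EV-deficient cells 32.4% of all genes were raised and 30.5% lowered. Gsdmd, the pore-forming gasdermin D, rose from 3.62 ± 0.40 to 10.6 ± 1.21 CPM in EV-proficient and from 3.09 ± 0.41 to 9.65 ± 0.51 CPM in EV-deficient cells (SD, n = 3; log2 fold changes 1.54 ± 0.15 and 1.64 ± 0.14, edgeR adjusted p 8.6e-09 and 2.0e-09). Tlr4, a receptor for HMGB1, also rose in both, by 0.64 ± 0.09 in EV-proficient cells (adjusted p 5.2e-06) and by 1.02 ± 0.09 in EV-deficient cells (adjusted p 3.4e-09). Cxcr4 had the largest fold changes of the list (2.60 ± 0.69 and 2.70 ± 0.60) but averaged at most 0.787 CPM in a group.

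**Figure D5:**
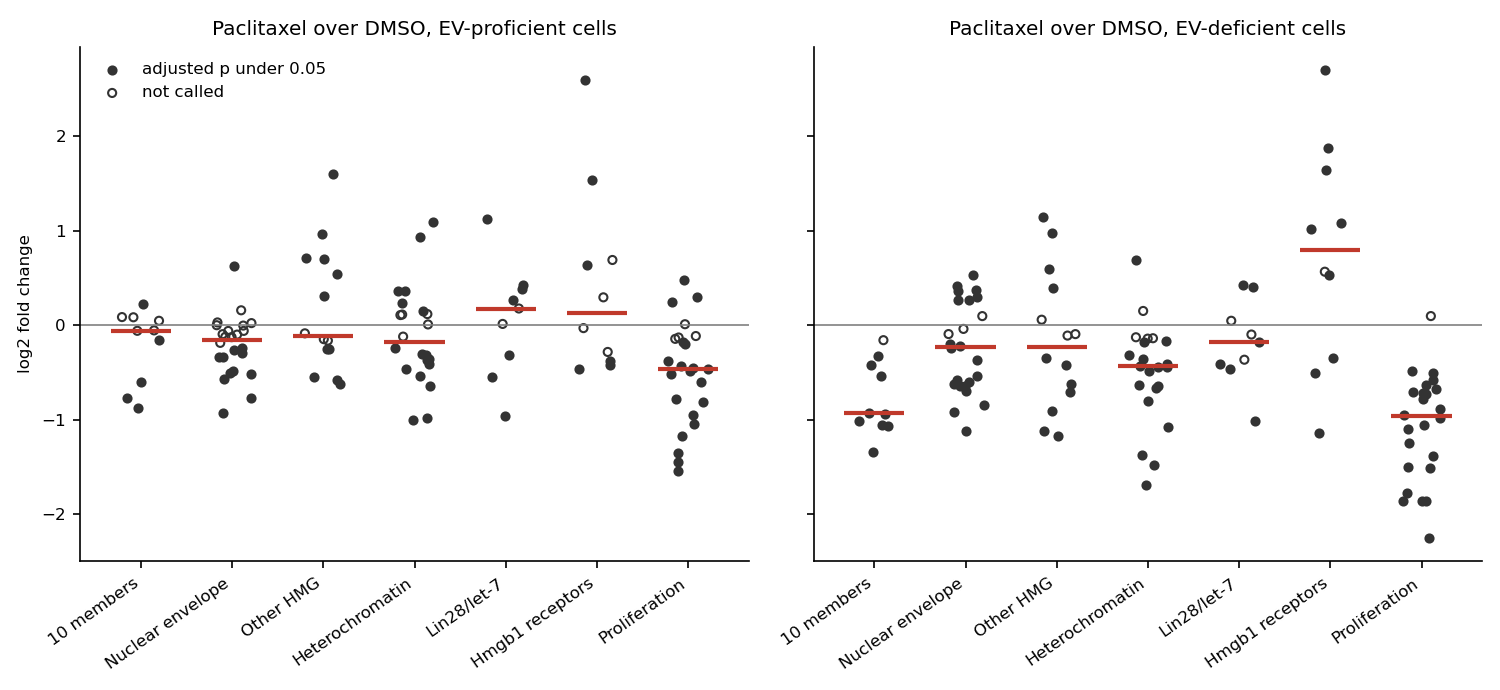
Log2 fold change of paclitaxel over DMSO (vertical axis) for the tested genes of each list, in EV-proficient cells (left) and EV-deficient cells (right); filled points have an adjusted p under 0.05, and red bars are list medians. The median of the 10 members is -0.06 on the left and -0.93 on the right, where the median of the proliferation genes is -0.97 and each list other than the members has points on both sides of 0.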

How the data were processed

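Per the labels' protocols, 12 stranded libraries of polyadenylated MOC2 RNA were sequenced. Read counts per gene, whole numbers without normalization, were deposited in a single table. STAR 2.5.0a and the mouse build GRCm38 are named in the submitters' processing notes; the counting program, the annotation release and the use of strand are not given in the sources used here. Without known strand use, reads of a gene and of an antisense partner cannot be told apart: Uspl1, on the other strand of Hmgb1, had 39430 reads beside 231438, and Gm49774 and AI413582, on the other strand of Hmga1, had 7505 and 7139 beside 774982, and Dnah14, on the other strand of Lbr, had 1727 beside 59498. Rows of 12 Hmgb1 pseudogenes held reads equal to 0.501% of the Hmgb1 reads. Reads that match Hmgb1 and a near-identical copy equally well were not measured, so that share does not bound the uncertainty of the split.

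Groups came from titles and treatment labels. In R 4.3.3 with edgeR 4.0.16, filterByExpr (minimum count 10) kept 18108 of the 35104 genes that had a read. TMM scaling gave factors of 0.890 to 1.15. All 12 libraries entered 1 quasi-likelihood fit, in which each group had its own mean. Benjamini-Hochberg adjustment covered every tested gene within each comparison, and 0.05 was the threshold. The standard error is the log2 fold change over the square root of F. CPM values use the scaled library sizes, and log2 CPM a prior count of 2. Levels per kb use exonic lengths from GENCODE M21 (GRCm38), which also gave coordinates. Intervals of counting error were not used; 3 reads in a library corresponded to 0.049 to 0.121 CPM. Count ratios were tested by exact permutation. The 2 added rows, gfp and dngfr, stayed out of library sizes and tests, and the gfp row had 0 reads.

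The members and lists were chosen with earlier results of these data known, so counts over a list are descriptions. All members are named; of other lists, at most 3 called genes with the largest fold change in a comparison and those with at most 3 reads in every library are named, with the 3 genes most correlated with Lmnb1, Hmgb2 and Hmga2. Marker genes of the cell check are named as well. Some items that this rule names are not reported here. Replicates of a group differed by more than sampling noise (chi-square per degree of freedom 4.34 to 31.4). The alternatives tried were upper-quartile and median-of-ratios scaling, testing genes without a count minimum or only those above 1 CPM in 3 libraries, limma-voom (limma 3.58.1), DESeq2 1.42.0, a replicate block, only the groups compared, summed counts for ratios and leaving out each library. The average over EV labels, the test of ratios between labels and the values with EV labels exchanged in 1 treatment were added after the data were seen. The code was tested on simulated data.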

Additional observations from a re-analysis of the deposited data

Results flagged for a closer look

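The paclitaxel effect differed between EV-deficient and EV-proficient cells, by the interaction test of edgeR, for 8 of 10 members, where 40.7% of all genes were called, 23.8% lower and 16.9% higher. On the log2 scale the difference (EV-deficient minus EV-proficient) was -1.29 for Hmgb2, -1.29 for Hmga1, -1.10 for Lmnb2, -0.77 for Lbr, -0.51 for Tmpo (-0.505), -0.34 for Lmnb1, -0.27 for Hmgb3 and 0.34 for Hmgb1. By exact permutation the difference between labels was -1.63 for the Hmgb2 to Hmgb1 count ratio and 1.04 for the Hmga2 to Hmga1 count ratio.

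The dngfr row, which entered no comparison of genes, averaged 8.99 CPM under DMSO and 3.24 CPM under paclitaxel with the EV-proficient label, and 2.14 CPM and 10.9 CPM with the EV-deficient label. The labels do not say which derivative carries this sequence, and its part in the differences above was not tested.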

How the results depend on the processing

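The members called for EV status under DMSO numbered 6 rather than 3 with no low-count filter, limma-voom or only the groups compared (12.7%, 21.9% and 36.6% of all genes called, against 23.0%), 5 with a filter of 1 CPM in 3 libraries (31.6%), and 3 to 5 with any 1 library left out (5 without EV-proficient DMSO replicate 2). For paclitaxel in EV-proficient cells the count was 3 to 5 (3 without EV-proficient DMSO replicate 1). The counts stayed at 9 to 10 for paclitaxel in EV-deficient cells, 8 to 9 for EV status under paclitaxel, 7 to 8 for the interaction and 9 for the average when 1 library was left out. Over the alternatives that kept every library they were 9 to 10, 8 to 9, 7 to 10 and 7 to 9 in the same order. Upper-quartile scaling raised the median log2 fold change of all genes by 0.18 for paclitaxel in EV-deficient cells, 0.12 for the average and 0.12 for the interaction. It moved the share of calls that were higher from 51.5% to 63.4% for paclitaxel in EV-deficient cells, from 42.4% to 58.2% for EV status under paclitaxel and from 41.4% to 53.9% for the interaction; the cause was not tested.

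Exchanging EV labels gave values with no test. With those of the paclitaxel libraries exchanged, the paclitaxel change of Hmga1 was -0.8737 in EV-proficient and 0.0346 in EV-deficient cells, the interaction was 0.3986 for Lmnb1, 0.3365 for Lmnb2, 0.4535 for Lbr, 0.1854 for Tmpo, 0.3882 for Hmgb2, 0.3054 for Hmgb3 and 0.9083 for Hmga1, and the difference between labels was 0.1086 for the Hmgb2 to Hmgb1 ratio and -0.6518 for the Hmga2 to Hmga1 ratio. With those of the DMSO libraries exchanged, the interaction of these 7 stayed negative, that of Hmgb1 was -0.2859, and the ratio differences were -0.1086, 0.6518 and, for Lmnb1 to Lmna, 0.193.

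Under the other alternatives, signs that turned belonged to values that were not called. Under upper-quartile scaling these were Hmgb2 (0.0064) and Hmgb3 (0.0022) for paclitaxel in EV-proficient cells, and Hmga2 for paclitaxel in EV-deficient cells (0.0257) and for the average (0.0865; 0.0025 with a filter of 1 CPM). With no filter they were Lmnb1 (0.0141), Hmgb3 (0.0248) and Hmga2 (0.0390) for EV status under DMSO. With 1 library left out, the ranges that crossed 0 were -0.0679 to 0.0019 for Lmnb1, -0.0573 to 0.0032 for Hmgb3 and -0.0433 to 0.0311 for Hmga2 under DMSO, -0.0423 to 0.1035 for Hmgb1 between labels under paclitaxel, and -0.0813 to 0.0837 for Lmnb2 and -0.0181 to 0.1258 for Hmga2 with paclitaxel in EV-proficient cells. The mean change of the Hmgb2 to Hmgb1 ratio ranged from -0.0078 to 0.0321, and that of the Lmnb1 to Lmna ratio from 0.0779 to 0.1604.

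No strong pairing by replicate number was seen: same-numbered libraries correlated at -0.081 to 0.097 after removal of group means. In 7 of 12 comparisons the best match was the own number, among them every EV-deficient DMSO library set against EV-deficient paclitaxel. How often such matches arise without pairing was not tested. With the replicate block 5, 9, 4, 9 and 8 members were called in the 5 comparisons and 9 for the average. Where a left-out library leaves 2 in a group, the test has less to go on. The fewest reads of a member in a library were 1202, and the part of counting error in the spread was not tested.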
